A study of Mus musculus with 35 samples.

Results

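Activins and bone morphogenetic proteins (BMPs) are secreted ligands of the TGFβ superfamily, and 10 genes of this system were followed here in *Smad4*-restorable pancreatic ductal adenocarcinoma (PDAC) cells grown in the pancreas, the liver and the lungs. They were the activin subunit genes *Inhba* and *Inhbb*, the activin-binding antagonists *Fst* and *Fstl3*, the activin type I receptor *Acvr1b*, the ligands *Bmp2*, *Bmp4* and *Bmp7*, and the BMP receptors *Bmpr1a* and *Bmpr2*. The members were chosen by gene name, and all 10 were found among the 53465 genes of the deposited table, each under 1 identifier. The data were 35 RNA-seq libraries of tumor cells sorted for the mKate2 reporter from athymic nude mouse hosts. The question addressed was how the RNA of these ligands, receptors and antagonists differed between libraries labelled Smad4 on and Smad4 off in each organ, and between organs under each label.

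The transplanted cells were KC-shSmad4 cells, lines derived from pancreatic tumors of mice that carry Ptf1a-Cre, a Rosa26 allele for rtTA3 and mKate2, and a doxycycline (Dox)-inducible, GFP-linked shRNA against *Smad4* at Col1a1. Hosts were kept on Dox chow, and the cells were injected into the pancreas, into the spleen to seed the liver, or into the tail vein to seed the lungs. By the labels and methods, Dox was withdrawn in the groups labelled Smad4 on 4 weeks (pancreas), 5 weeks (liver) or 6 weeks (lungs) after injection, and the tumor cells were sorted 7 or 14 days later. In the groups labelled Smad4 off, the hosts stayed on Dox. The hosts lack T cells, and the growth periods before withdrawal differed with the organ. So did the number of cells injected, which was highest for the liver and lowest for the pancreas. On day 7 there were 3 pancreas libraries labelled off and 2 labelled on, 2 and 3 from liver, and 4 and 2 from lung. Day 14 gave 2 and 3 from pancreas, 3 and 3 from liver, and 4 and 4 from lung. The labels number the mice within each group. They do not say which tumor-derived line each library came from, so the spread between libraries may mix lines.

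Activins are dimers of inhibin β chains. *Inhba* encodes the βA chain and *Inhbb* the βB chain. Activins bind type II receptors, which recruit ACVR1B (ALK4), and this leads to phosphorylation of SMAD2 and SMAD3, the same receptor SMADs that TGFβ uses. BMPs bind BMPR2 and other type II receptors together with type I receptors such as BMPR1A (ALK3) and act through SMAD1, SMAD5 and SMAD9. Both branches share SMAD4 as the common partner in the nucleus. Follistatin (*Fst*) and follistatin-like 3 (*Fstl3*) bind activins outside the cell and keep them from their receptors.

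Between 11885461 and 43571007 counts per library were assigned to genes (median 19415320), so that 3 counts in a library corresponded to 0.0689 to 0.252 CPM of the raw total. Such floors cover counting error only. Levels below are normalised CPM, adjusted by the TMM method of edgeR. *Smad4* mRNA went against the labels: it lay between 14.8 and 22.4 CPM in the 17 libraries labelled Smad4 on and between 69.9 and 143 CPM in the 18 labelled Smad4 off. Every fold change below is therefore given as labelled on against labelled off, and a negative value means less RNA in the libraries with less *Smad4* mRNA. Treatments are given as labelled. Whether the labels of the table are exchanged was not tested, and every direction by label would turn if they were. The ductal markers *Epcam*, *Krt8*, *Krt18*, *Krt19*, *Cdh1* and *Sox9* had counts in every library, with summed levels of 2381 to 15037 CPM. The liver library labelled off of day 7 with replicate number 2, the one library labelled paired-end, stood apart from the other liver libraries. Its 7 fibroblast markers summed to 35782 CPM, against 255 to 4307 CPM in the other liver libraries and 8783 to 24253 CPM in the pancreas. Its 5 acinar markers summed to 178 CPM, against at most 0.547 CPM in the other liver libraries and 371 to 1733 CPM in the pancreas. Results that rest on it are given with and without it. In bulk libraries, fewer cells of a type and less RNA per cell cannot be told apart.

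Promoter windows were printed for the 3 members called in the pancreas on day 14 (*Inhbb*, *Fstl3* and *Bmp4*) and for *Inhba*, the most abundant activin gene. Each is the 250 bases before the RefSeq start (GRCm38.p6), written 5′ to 3′ on the strand of the gene. The strings searched on both strands were CAGAC, the short SMAD-binding element that reads GTCTG on the other strand, GGCGCC, a GC-rich SMAD site, and TGANTCA, an AP-1 site. Capitals mark every match, and no matches overlapped.
*Inhba*, chr13:16011601-16011850, plus strand: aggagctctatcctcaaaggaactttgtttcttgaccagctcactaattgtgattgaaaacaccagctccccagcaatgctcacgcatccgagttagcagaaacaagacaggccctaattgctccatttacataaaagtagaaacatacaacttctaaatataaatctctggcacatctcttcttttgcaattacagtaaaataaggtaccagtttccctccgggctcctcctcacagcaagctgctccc
*Inhbb*, chr1:119422249-119422498, minus strand: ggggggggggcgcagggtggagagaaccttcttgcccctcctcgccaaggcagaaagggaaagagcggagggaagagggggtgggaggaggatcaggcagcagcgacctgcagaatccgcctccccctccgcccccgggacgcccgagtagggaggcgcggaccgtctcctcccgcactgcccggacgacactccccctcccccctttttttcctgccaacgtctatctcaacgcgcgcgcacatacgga
*Fstl3*, chr10:79777024-79777273, plus strand: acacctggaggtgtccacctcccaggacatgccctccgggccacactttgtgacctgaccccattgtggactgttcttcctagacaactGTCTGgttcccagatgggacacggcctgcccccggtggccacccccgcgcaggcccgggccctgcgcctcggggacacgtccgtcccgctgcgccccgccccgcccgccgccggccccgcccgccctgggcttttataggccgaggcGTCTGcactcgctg
*Bmp4*, chr14:46390670-46390919, minus strand: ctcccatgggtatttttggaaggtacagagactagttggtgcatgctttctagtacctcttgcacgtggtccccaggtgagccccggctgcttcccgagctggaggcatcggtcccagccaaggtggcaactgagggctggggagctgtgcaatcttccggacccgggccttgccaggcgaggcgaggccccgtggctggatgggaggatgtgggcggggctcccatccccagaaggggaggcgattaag

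*Fstl3* held CAGAC at 2 places, starting at positions -161 and -14 from the start and read as GTCTG on the printed strand, and none of the other 3 windows held a match. Of the 7 members with a window in the table, *Bmpr1a* and *Bmpr2* each held 1 GGCGCC, and none held TGANTCA. Among all 32851 mouse windows of this length, 42.2% held CAGAC, 9.59% GGCGCC and 6.75% TGANTCA, so a match is common and is given as a description of the letters only. *Fst*, *Bmp2* and *Bmp7* had no window in the table used.

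The ligands and their antagonists were expressed at very different levels. Over all 35 libraries, the median level per kilobase of transcript was highest for *Inhba* (21.5 CPM per kb), followed by *Bmpr1a* (18.6), *Acvr1b* (11.8), *Bmp2* (11.2), *Inhbb* (6.54), *Bmpr2* (5.48), *Fst* (5.12), *Bmp4* (3.30), *Fstl3* (2.82) and *Bmp7* (0.406 CPM per kb). With all libraries included, the 4 activin and follistatin genes also varied most among the members that had counts above the floor in every library. Their highest CPM exceeded their lowest 49.4-fold for *Inhba*, 48.0-fold for *Fst*, 42.8-fold for *Inhbb* and 25.2-fold for *Fstl3*. For the receptors this ratio was 4.08 (*Acvr1b*), 3.51 (*Bmpr2*) and 2.01 (*Bmpr1a*), and for *Bmp2* it was 11.8. The highest *Inhbb* and *Fstl3* values (152 and 43.2 CPM) were those of the paired-end liver library. The highest elsewhere were 106 and 19.3 CPM, and the place of *Fstl3* above *Bmp2* rested on the paired-end library. *Bmp7* was at or under 3 counts in 2 libraries.

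*Inhba* (chr13:16011851-16031621, plus strand, GRCm38) was high in every group except the liver libraries labelled on. In the pancreas its level was 159, 147 and 176 CPM in the libraries labelled off and 159 and 180 CPM in those labelled on of day 7. On day 14 it was 202 and 199 CPM in those labelled off and 87.1, 112 and 107 CPM in those labelled on. The 2 groups of day 14 did not overlap, and the change was -0.95 ± 0.11 (log2 fold change ± SE, adjusted p = 0.00222), just under the fold of 2 that a call required.

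In the liver, *Inhba* was at 196 CPM and, in the paired-end library, 333 CPM among the libraries labelled off of day 7, against 23.7, 16.4 and 7.41 CPM in those labelled on. On day 14 it was at 367, 84.9 and 61.4 CPM in those labelled off and 18.9, 19.2 and 17.6 CPM in those labelled on. No liver library labelled on of either day reached the lowest liver library labelled off. The day 7 log2 fold change was -4.13 ± 0.56 (adjusted p = 0.0562) and that of day 14 was -3.27 ± 0.72 (adjusted p = 0.357), so neither passed the test in edgeR, while DESeq2 called both. Without the paired-end library, the day 7 change was -3.72 ± 0.56 and passed (adjusted p = 0.0366), with the single remaining library labelled off assumed to vary like the others.

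In the lungs, *Inhba* did not separate by label. It was at 155, 281, 124 and 106 CPM in the libraries labelled off and 98.8 and 231 CPM in those labelled on of day 7. On day 14 it was at 139, 201, 232 and 138 CPM in those labelled off and 83.6, 69.4, 50.4 and 324 CPM in those labelled on. The groups overlapped on both days, on day 14 through replicate 4 of those labelled on, which was the highest lung library for *Inhba* and *Fst*. The day 7 change was 0.03 ± 0.48 (adjusted p = 0.999), that of day 14 -0.43 ± 0.56 (adjusted p = 0.894). Without that library it was -1.41 ± 0.25 on day 14 (adjusted p = 0.121).

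*Inhbb* (chr1:119415465-119422248, minus strand) was highest in the pancreas and, apart from the paired-end library, lowest in the liver. In the pancreas it was at 52.3, 99.9 and 89.0 CPM (off) and 88.1 and 97.6 CPM (on) on day 7, and at 106 and 94.6 CPM (off) and 35.6 to 55.7 CPM (on) on day 14. The day 14 groups did not overlap and *Inhbb* fell (-1.12 ± 0.18, adjusted p = 0.0117). Leaving out either pancreas library labelled off of day 14 ended the call, at adjusted p = 0.115 without replicate 1 and 0.0870 without replicate 2, and without replicate 1 of those labelled on the change was -0.98, under the fold required.

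The liver libraries were low in *Inhbb* under both labels, apart from the paired-end one. That library had 152 CPM, while the other labelled off of day 7 had 3.92 CPM and those labelled on had 6.86, 7.47 and 15.3 CPM. On day 14 the liver had 3.54, 8.17 and 18.0 CPM (off) and 4.73, 8.86 and 12.8 CPM (on). The day 7 value of -3.05 ± 1.31 (adjusted p = 0.215) became 1.22 ± 0.57 (adjusted p = 0.252) without the paired-end library, so its direction rested on 1 library.

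In the lungs, *Inhbb* was at 29.2, 25.1, 18.4 and 36.2 CPM (off) and 32.1 and 14.8 CPM (on) on day 7. On day 14 it was at 13.8, 22.1, 14.8 and 23.8 CPM (off) and 33.8, 42.3, 27.8 and 60.6 CPM (on). Each of the 4 lung libraries labelled on of day 14 lay above all 4 labelled off, the opposite direction to the pancreas of the same day. The change of 1.14 ± 0.28 did not pass in edgeR without pairing (adjusted p = 0.226), and DESeq2 without pairing called it (adjusted p = 0.0111). The replicate numbers were taken to pair the lung libraries of day 14, and with them as a replicate block in edgeR the value was 1.12 and passed (adjusted p = 0.00746). The labels do not state this pairing, which was inferred from these same counts.

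*Fst* (chr13:114452262-114458949, minus strand) was lowest in the liver libraries labelled on. On day 7 its levels were 20.5 CPM and, in the paired-end library, 41.5 CPM in the liver libraries labelled off, and 5.06, 3.40 and 1.88 CPM in those labelled on. On day 14 they were 13.8, 9.89 and 5.54 CPM (off) and 7.74, 6.67 and 2.94 CPM (on). The groups were separate on day 7 and overlapped on day 14, and neither change passed in edgeR, at -3.23 ± 0.54 (adjusted p = 0.0581) and -0.80 ± 0.49 (adjusted p = 0.661), while DESeq2 called that of day 7 (adjusted p = 4.88e-07). Without the paired-end library the day 7 value was -2.66 ± 0.53 (adjusted p = 0.0581). In the pancreas, *Fst* was at 13.5 to 36.1 CPM (off) and 26.9 to 31.8 CPM (on) on day 7, and at 15.0 and 15.1 CPM (off) and 9.12 to 10.7 CPM (on) on day 14. The day 14 groups did not overlap, with a change of -0.59 ± 0.15 (adjusted p = 0.0368) that was under the fold required. In the lungs it spanned 11.8 to 35.9 CPM in the 8 libraries labelled off and 16.2 to 31.0 CPM in those labelled on other than replicate 4 of day 14, which had 90.4 CPM. The lung change on day 14 was 0.49 ± 0.59 with that library and -0.58 ± 0.22 without it, with adjusted p = 0.877 and 0.335.

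*Fstl3* (chr10:79777272-79782630, plus strand) had a negative fitted change with the label on in all 6 comparisons of organ and day. In the pancreas it was at 14.1, 15.2 and 19.3 CPM (off) and 11.9 and 6.90 CPM (on) on day 7, and at 15.7 and 17.9 CPM (off) and 6.47, 6.58 and 6.84 CPM (on) on day 14. The groups did not overlap on either day. *Fstl3* fell on day 14 (-1.32 ± 0.15, adjusted p = 0.00206), a call that was kept when any single library was left out, and the day 7 value of -0.77 ± 0.27 did not pass (adjusted p = 0.159). In the liver it was at 8.26 and 43.2 CPM (off, the second value being the paired-end library) and 2.66, 2.81 and 4.88 CPM (on) on day 7, and at 12.4, 5.27 and 9.57 CPM (off) and 1.71, 3.05 and 3.17 CPM (on) on day 14. These groups did not overlap either. The liver changes of -2.97 ± 0.73 (adjusted p = 0.0867) and -1.82 ± 0.46 (adjusted p = 0.357) did not pass in edgeR, and DESeq2 called both. Without the paired-end library, the liver value of day 7 was -1.37 ± 0.44 (adjusted p = 0.133). The lung levels were 4.82 to 10.7 CPM (off) and 4.86 and 6.00 CPM (on) on day 7. On day 14 it was at 6.92, 5.56, 15.5 and 17.4 CPM (off) and 3.53, 4.72, 5.90 and 11.1 CPM (on). The lung groups overlapped, but each library labelled on of day 14 was below the one labelled off with its number. The day 14 change was -0.86 ± 0.48 (adjusted p = 0.616), and -0.82 ± 0.22 with the replicate block (adjusted p = 0.104), so it did not pass in either fit.

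**Figure D1:**
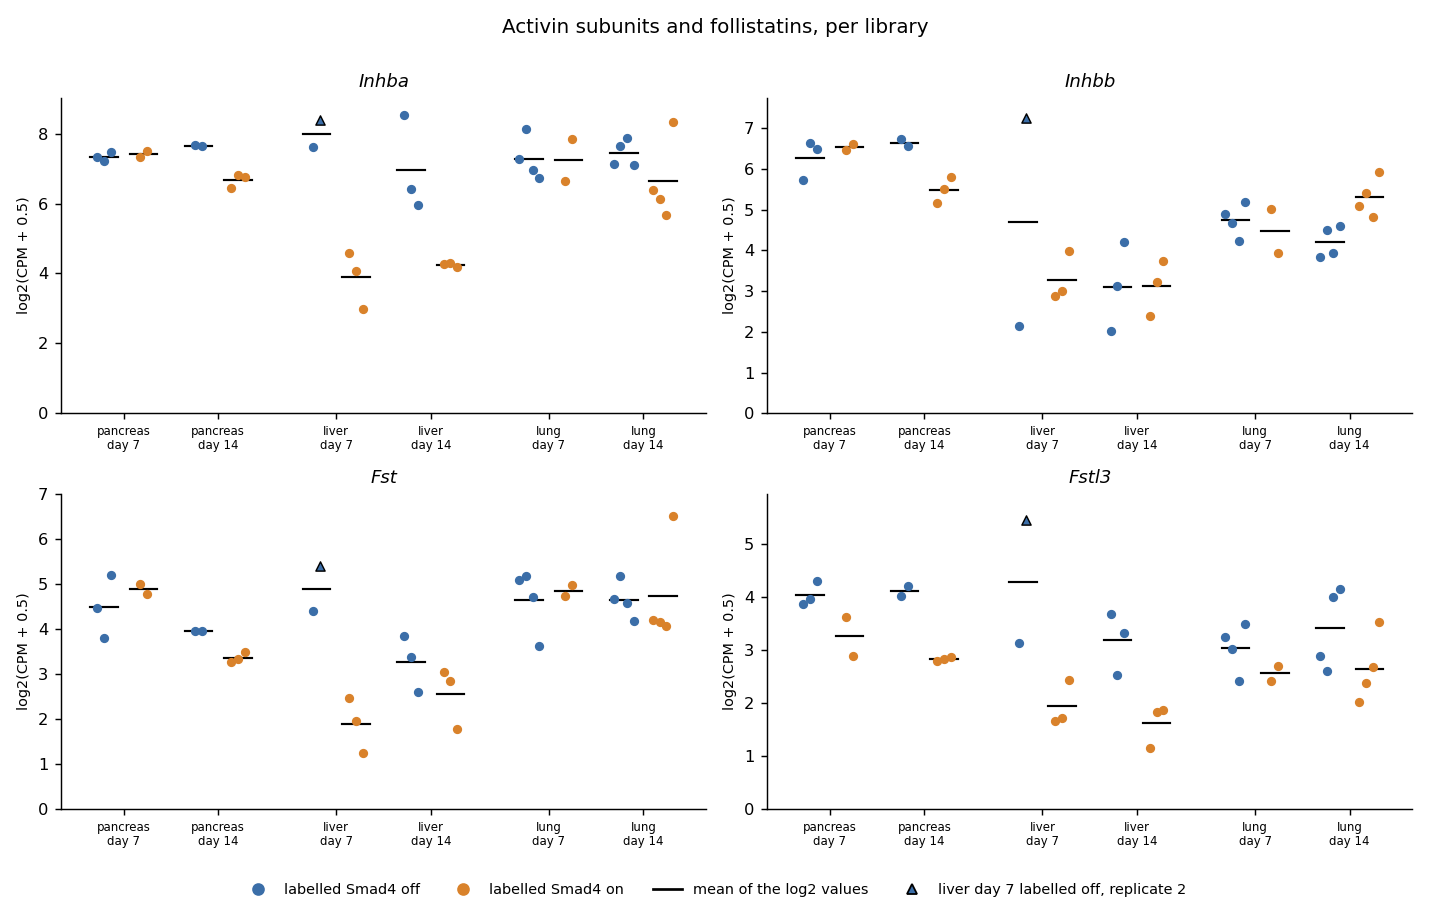
Levels of the activin subunit genes and the follistatin genes in each of the 35 libraries, as log2(CPM + 0.5) on the y axis and organ and day on the x axis. Points are libraries, bars are the means of the log2 values, and the triangle is the paired-end liver library. The liver libraries labelled on sit at 7.41 to 23.7 CPM for *Inhba*, below all others of the 35, and *Inhbb* is highest in the pancreas and in the triangle.

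The summed RNA of the activin subunits and that of the follistatins were both lowest in the liver libraries labelled on. Summed per kb, *Inhba* and *Inhbb* ranged from 4.08 to 5.77 CPM per kb (median 4.93) in the 6 liver libraries labelled on, while the other 29 libraries started at 13.9 CPM per kb. *Fst* and *Fstl3* summed to 2.16 to 3.23 CPM per kb (median 2.57) in those 6, while the others started at 5.09 CPM per kb. The ratio of subunits to follistatins was 1.36 to 2.66 (median 1.93) there, 2.49 to 6.36 (median 2.99) in the 5 liver libraries labelled off, with medians of 4.51 and 4.73 in the pancreas libraries labelled off and on. In the lungs the median was 2.66 under both labels. RNA ratios are given as levels and no test was run on them. Among libraries labelled off, *Inhba* made up a median of 83.8% of the subunit RNA per kb in the lungs, 87.4% in the liver (59.4% to 98.6%) and 56.8% in the pancreas.

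**Figure D2:**
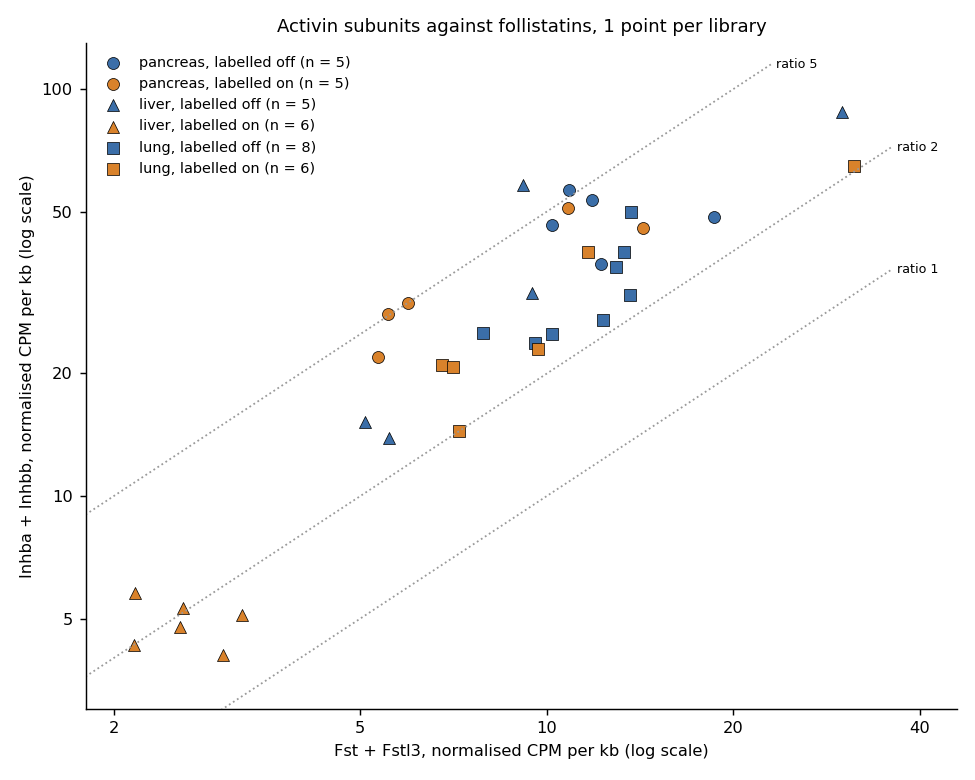
Summed level per kb of *Inhba* and *Inhbb* (y axis) against that of *Fst* and *Fstl3* (x axis), both as normalised CPM per kb on log scales, with 1 point per library and dotted lines at ratios of 1, 2 and 5. The 6 liver libraries labelled on form the group at the lower left, with ratios of 1.36 to 2.66.

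The receptors spanned narrower ranges than the activin and follistatin genes. *Acvr1b*, which encodes the type I receptor for activins, was at 34.7 and, in the paired-end library, 25.8 CPM in the liver libraries labelled off of day 7, and at 74.8, 67.0 and 105 CPM in those labelled on. These groups did not overlap. The change of 1.36 ± 0.28 did not pass in edgeR (adjusted p = 0.0713), while DESeq2 called it (adjusted p = 0.000804). Without the paired-end library the edgeR change was 1.14 ± 0.30. *Acvr1b* was the one activin gene of the set with a positive fitted change in all 6 label comparisons, at 0.20 to 1.36 on the log2 scale. *Bmpr2*, the type II receptor for BMPs, had a negative fitted change in all 6, at -1.11 to -0.18. The -1.11 ± 0.39 is that of the day 7 liver, and it was -0.36 ± 0.21 (adjusted p = 0.346) without the paired-end library. The pancreas of day 14 had 126 and 151 CPM (off) and 98.6, 103 and 106 CPM (on) of *Bmpr2*, groups that did not overlap, with a change of -0.41 ± 0.10 (adjusted p = 0.0331) under the fold required. *Bmpr1a*, the type I receptor for BMPs, stayed between 74.5 and 150 CPM in all 35 libraries, and its fitted changes with the label were -0.05 to 0.31.

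*Bmp2* was lowest in the liver libraries labelled on, while the pancreas and lung libraries lay at or above 25.8 CPM. The liver had 47.7 CPM and, in the paired-end library, 99.8 CPM (off) against 19.5, 15.2 and 16.7 CPM (on) on day 7, and 105, 24.2 and 20.7 CPM (off) against 15.2, 17.8 and 9.78 CPM (on) on day 14. Neither pair of groups overlapped. The changes were -2.18 ± 0.34 (adjusted p = 0.0578) and -1.87 ± 0.68 (adjusted p = 0.456), and without the paired-end library the day 7 value was -1.58 ± 0.21 and passed (adjusted p = 0.0311). In the pancreas the change was 0.06 ± 0.42 on day 7 and -0.06 ± 0.22 on day 14, with adjusted p = 0.950 and 0.900.

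*Bmp4*, by contrast, had a positive fitted change in all 6 label comparisons. In the liver it was 0.47 ± 0.42 on day 7 and 0.46 ± 0.34 on day 14 (adjusted p = 0.542 and 0.716). In the lungs it was 0.24 ± 0.34 and 0.31 ± 0.26 (adjusted p = 0.998 and 0.784). The groups of these 2 organs overlapped on both days. In the pancreas, *Bmp4* was at 8.05, 6.59 and 7.42 CPM (off) and 15.5 and 13.6 CPM (on) on day 7, and at 4.10 and 4.28 CPM (off) and 8.64, 6.89 and 9.71 CPM (on) on day 14. The groups did not overlap on either day. Fibroblast markers summed to 11804 to 16852 CPM (off) and 23295 to 24253 CPM (on) on day 7, with no overlap, and to 11971 to 12657 CPM (off) and 8783 to 17291 CPM (on) on day 14, with overlap. Acinar markers (941 to 1690 CPM off, 371 to 522 CPM on) and leukocyte markers (52.2 to 69.1 CPM off, 29.2 to 39.4 CPM on) were lower with the label on of day 7. Their part in the *Bmp4* values was not tested. *Bmp4* rose on day 14 (1.027 ± 0.22, adjusted p = 0.0207), and its change of 0.99 ± 0.18 on day 7 passed the p threshold (adjusted p = 0.0482) but lay just under the required fold. Leaving out either pancreas library labelled off of day 14, or replicate 3 of those labelled on, ended the call of day 14 (adjusted p = 0.167, 0.141 and 0.0697). A noncoding gene on the opposite strand, *Gm15222*, overlaps *Bmp4* and had 987 counts in all against 5715, and whether the counting used strand was not given in the sources used here.

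*Bmp7* was the scarcest ligand, and liver libraries labelled off held the highest levels. Its fitted change was negative in all 6 label comparisons, at -2.83 to -1.17. *Bmp7* was at 25.8 and 13.9 CPM (off, the second value being the paired-end library) and 2.22, 2.78 and 3.96 CPM (on) in the liver on day 7, and at 1.29, 1.91 and 18.6 CPM (off) and 1.31, 2.73 and 1.22 CPM (on) on day 14. The day 7 groups were separate, with a change of -2.83 ± 0.42 (adjusted p = 0.0562) that was -3.22 ± 0.35 and passed without the paired-end library (adjusted p = 0.0275). On day 14 the groups overlapped. In the lungs of day 14 it was at 6.07, 1.28, 3.68 and 2.27 CPM (off) and 1.32, 0.317, 1.61 and 0.946 CPM (on), and the change of -1.67 ± 0.59 (adjusted p = 0.376) passed only with the replicate block, at -1.64 (adjusted p = 0.0437). The pancreas of day 14 had 2.18 and 5.72 CPM (off) and 1.63, 1.68 and 0.544 CPM (on). Those groups did not overlap, and the edgeR change of -1.59 ± 0.56 did not pass (adjusted p = 0.113).

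**Figure D3:**
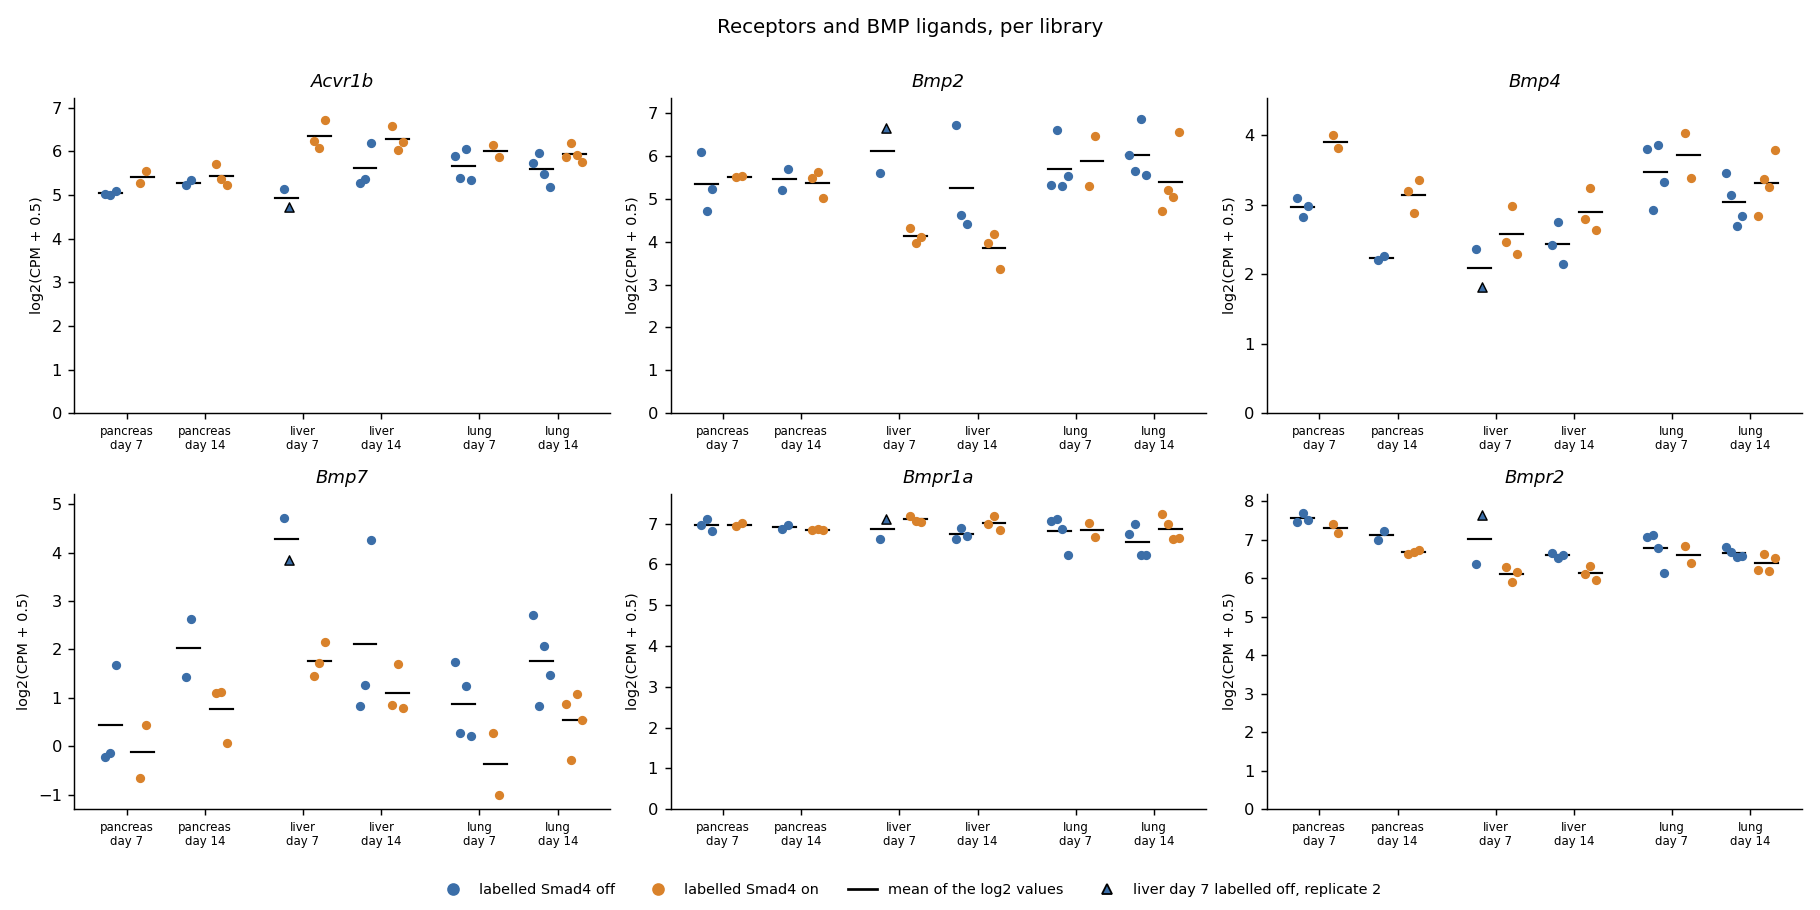
Levels of *Acvr1b*, the BMP ligand genes and the BMP receptor genes in each library, plotted as for the activin genes, with a y axis of log2(CPM + 0.5) whose range differs between genes. *Bmpr1a* spans 74.5 to 150 CPM over all libraries, while *Bmp7* spans 0 to 25.8 CPM.

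Counted over the 10 members, the label gave edgeR calls in the pancreas of day 14 only, among the 6 label comparisons fitted on all libraries without pairing, while DESeq2 also called members in the liver and in the lungs of day 14. In the pancreas of day 14, 3 of 10 members were called, with *Fstl3* and *Inhbb* lower and *Bmp4* higher, where 4.64% of all genes tested were called. The pancreas libraries of that day labelled off had 28557488 and 32195795 counts, and those labelled on 12200163 to 14255679 counts. Depth thus went with the label there, and its part was not tested. The median log2 fold change of the members in that comparison was -0.50, against 0.02 over all genes. In the pancreas of day 7 no member was called by edgeR or DESeq2, 3 had an unadjusted p under 0.05, and 1.33% of all genes were called.

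In the liver of day 7, edgeR called 0 of 10 members and 0.444% of all genes, although 7 members had an unadjusted p under 0.05 and DESeq2 called 7. Those called by DESeq2 were *Inhba*, *Inhbb*, *Fst*, *Fstl3*, *Acvr1b*, *Bmp2* and *Bmp7*. The lowest adjusted p of any gene in edgeR was 0.0477 there. Members had a median log2 fold change of -2.50, against -0.06 over all genes. Leaving out the other library labelled off, so that the paired-end one stood alone, gave 8 member calls. Leaving out the paired-end library instead, 3 of 10 members were called, all lower (*Inhba*, *Bmp2* and *Bmp7*), where 4.98% of all genes were called, and the median of the members was -0.87 against 0.06. On day 14 in the liver, 0 of 10 members and 0% of genes were called by edgeR, 4 members had an unadjusted p under 0.05, and DESeq2 called 2 (*Inhba* and *Fstl3*).

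In the lungs, no member was called by edgeR on day 7, where 0% of genes were called and no member had an unadjusted p under 0.05. DESeq2 called none of the members there either. On day 14, edgeR called 0 members and 0.0271% of genes, 2 members had an unadjusted p under 0.05 (*Inhbb* and *Bmp7*), and DESeq2 called *Inhbb*. With the replicate block 2 members were called, *Inhbb* higher and *Bmp7* lower, where 0.739% of all genes were called.

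**Figure D4:**
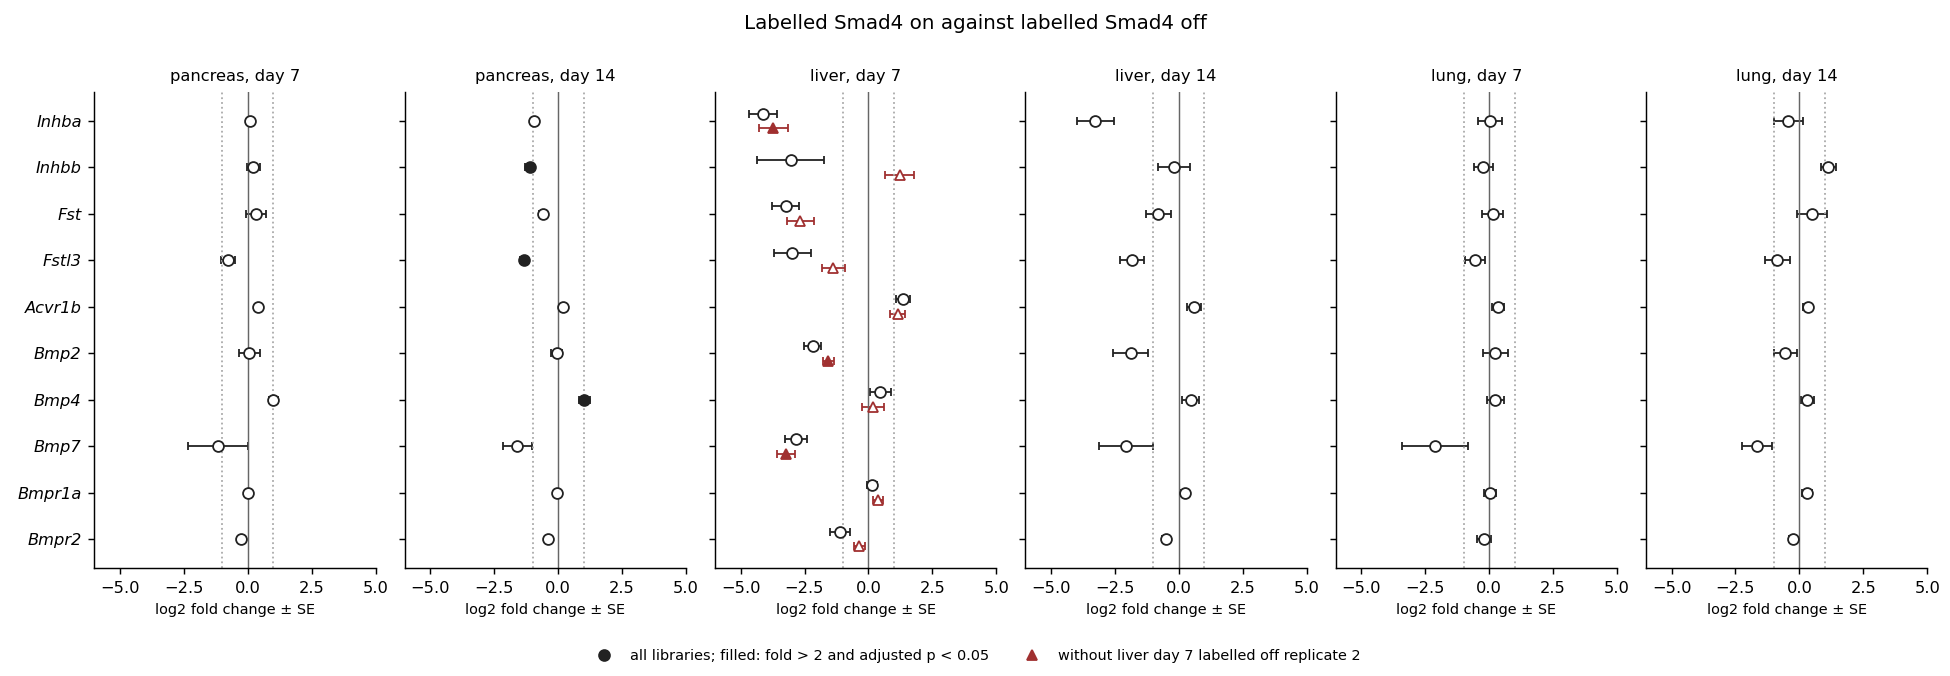
Log2 fold change of each member, labelled on against labelled off, with its SE (x axis), for each organ and day. Circles are fits on all libraries, triangles a fit of the day 7 liver that omits the paired-end library, filled symbols are called, and dotted lines mark a fold of 2. *Inhbb* in the liver of day 7 lies at -3.05 with the library and at 1.22 without it.

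The clearest organ difference lay among the libraries labelled on, where 5 members were lower in the liver than in both other organs: *Inhba*, *Inhbb*, *Fst*, *Fstl3* and *Bmp2*. Under this label *Inhba* averaged 17.2 ± 5.41 CPM (SD, n = 6) in the liver. It averaged 129 CPM in the pancreas (87.1 to 180 CPM, n = 5) and 143 ± 109 CPM (SD, n = 6) among lung libraries. Against the pancreas, the log2 fold changes in the liver were -2.91 ± 0.45 for *Inhba*, -2.80 ± 0.38 for *Inhbb*, -1.92 ± 0.53 for *Fst*, -1.38 ± 0.30 for *Fstl3* and -1.51 ± 0.30 for *Bmp2* (adjusted p from 2.79e-05 to 0.00884). This made 5 of 10 members called, all lower, where 22.2% of all genes were called, and the median of the members was -1.12 against 0.04 over all genes. DESeq2 called the same genes except *Fst*, for which it gave no adjusted p, and also called *Bmp7*. On day 14 alone, *Fst* was at -0.79 (adjusted p = 0.449) and was not called.

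Against the lungs, the same 5 genes were called lower in the liver labelled on, at -3.10 ± 0.44 (*Inhba*), -1.97 ± 0.37 (*Inhbb*), -2.87 ± 0.52 (*Fst*), -1.06 ± 0.30 (*Fstl3*) and -1.80 ± 0.30 (*Bmp2*), with adjusted p from 0.000328 to 0.0203. Of all genes, 10.3% were called. Both comparisons use the same 6 liver libraries. The *Fstl3* change was -0.77 without lung replicate 4 of day 14 and -0.91 without liver replicate 1 of day 14, no longer past the fold of 2. The other 4 calls held in edgeR whichever library was left out, while DESeq2 gave no adjusted p for *Fst* here either and also called *Bmp7*. With 1 day alone, 3 members were called on day 7 (*Inhba*, *Fst* and *Bmp2*) and 2 on day 14 (*Inhba* and *Inhbb*). *Acvr1b* was higher in the liver than in the pancreas (0.88 ± 0.14, adjusted p = 0.000101) and *Bmpr2* was lower (-0.86 ± 0.13, adjusted p = 7.7e-05), both under the fold required. Against the lungs, the liver values were 0.35 ± 0.13 for *Acvr1b* (adjusted p = 0.0684) and -0.40 ± 0.13 for *Bmpr2* (adjusted p = 0.0358). *Bmp4* was lower in the liver than in the pancreas (-0.78 ± 0.24, adjusted p = 0.0176) and the lungs (-0.79 ± 0.23, adjusted p = 0.0260), also under the fold required.

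Lungs and pancreas labelled on did not differ by a call in any member, where 13.6% of all genes were called. In edgeR, 3 members had an unadjusted p under 0.05 and DESeq2 called none. Of these 3, 2 passed the adjusted p threshold but lay under the fold required. *Acvr1b* was higher in the lungs than in the pancreas (0.53 ± 0.14, adjusted p = 0.00939) and *Bmpr2* was lower (-0.46 ± 0.13, adjusted p = 0.0158), the same directions as in the liver. *Inhbb* had a fitted value of -0.83 ± 0.37 (adjusted p = 0.107), which was -1.05 ± 0.36 and called without lung replicate 4 of day 14 (adjusted p = 0.0417).

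Among the libraries labelled off, *Inhbb* was the one member called. It averaged 88.3 ± 21.1 CPM (SD, n = 5) in the pancreas and 22.9 ± 7.48 CPM (n = 8) in the lungs, and was lower in the lungs (-2.05 ± 0.63, adjusted p = 0.0182), where 18.4% of all genes were called. The *Inhbb* call was lost without either pancreas library of day 14, at adjusted p = 0.0697 and 0.0597. *Bmpr2* was also lower in the lungs than in the pancreas (-0.67 ± 0.17, adjusted p = 0.00717), under the fold required. In the liver against the pancreas, 0 of 10 members were called by edgeR, where 8.68% of all genes were. In the liver against the lungs, 0 members were called, where 3.95% of genes were. *Bmp4* was lower in the liver there (-0.96 ± 0.24, adjusted p = 0.0284), just under the fold required. In these 2 comparisons, 3 and 2 members had an unadjusted p under 0.05, and DESeq2 called *Bmp7* in each. Leaving out either replicate 1 or 2 of the liver libraries of day 14 also gave calls, of *Bmp7* against the pancreas and of *Bmp4* and *Bmp7* against the lungs.

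Once the paired-end library was left out, *Inhbb* was called in all 3 comparisons of the libraries labelled off. It was lower in the liver than in the pancreas (-3.42 ± 0.47, adjusted p = 6.92e-05), where 15.3% of all genes were called. It was lower in the lungs than in the pancreas (-1.95 ± 0.34, adjusted p = 0.000297), where 19.3% of genes were called, and lower in the liver than in the lungs (-1.48 ± 0.42, adjusted p = 0.0403), where 4.18% were. In the last of these the value with the library was 0.43 ± 0.65, so the direction turned. The levels of *Inhbb* labelled off thus ran from 52.3 to 106 CPM in the pancreas, 13.8 to 36.2 CPM in the lungs and 3.54 to 18.0 CPM in the liver without that library, and only the last 2 ranges overlapped. *Inhba*, *Fst* and *Bmp2* were not called between any pair of organs labelled off, with or without the library.

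**Figure D5:**
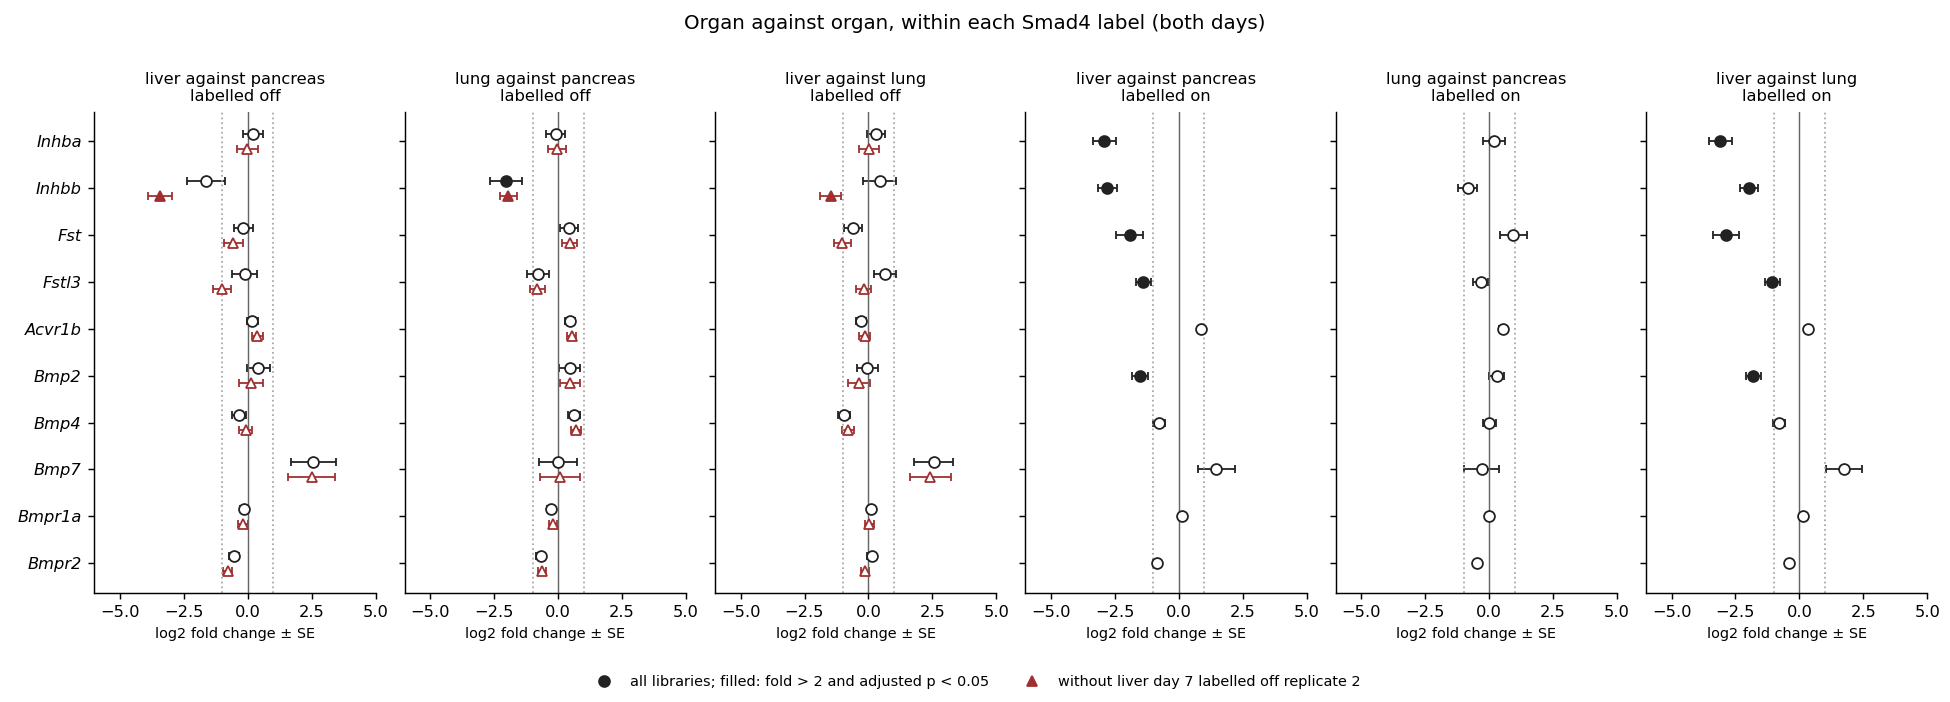
Log2 fold change of each member between organs with its SE (x axis), for libraries labelled off (left) and on (right), both days together. Circles are fits on all libraries, triangles are fits without the paired-end liver library, and filled symbols are called. The liver labelled on has 5 filled circles below 0 against each other organ, and *Inhbb* labelled off is filled in all 3 comparisons only without that library.

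Markers of the tumor epithelium and of other cell types differed between the organs beside these genes. Labelled on, the 6 ductal markers summed to 3123 to 7090 CPM in the pancreas, 13035 to 15037 CPM in the liver and 7287 to 11317 CPM in the lungs. Over all 10 pancreas libraries, the ductal sums (2381 to 7090 CPM) lay below the fibroblast sums (8783 to 24253 CPM). The 7 fibroblast markers summed to 8783 to 24253 CPM among pancreas libraries labelled on, 343 to 2999 CPM among liver and 159 to 1595 CPM among lung libraries, and fibroblasts can express *Inhba*, *Fst*, *Bmp4* and *Grem1*. The lungs labelled on had *Inhba* at 50.4 to 324 CPM at the low fibroblast sums, and the liver at 7.41 to 23.7 CPM. The 6 hepatocyte markers summed to 35.2 to 144 CPM in the liver labelled on. In the liver labelled off they summed to 1.32 CPM in the paired-end library, with 3 of the 6 at 0, and to 16.8 to 47.1 CPM in the others. *Inhbc* and *Inhbe*, activin chains made by hepatocytes, were at or near 0 in every library (at most 0.124 CPM). The 4 sinusoidal and stellate markers summed to at most 6.15 CPM, the 4 endothelial markers to at most 88.5 CPM and the 4 leukocyte markers to at most 332 CPM in any library. The 5 lung epithelial markers summed to 64.2 to 499 CPM in the lungs and to at most 1.72 CPM elsewhere. The part of these cells in the results was not tested.

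Whether the label effect differed between organs was tested by an F test of the 2 interaction terms. On day 7, *Inhba* (adjusted p = 0.019) and *Fst* (adjusted p = 0.0255) were called, where 4.25% of all genes were, with label changes of *Inhba* at 0.09 (pancreas), -4.13 (liver) and 0.03 (lungs). For *Fst* these were 0.31, -3.23 and 0.14. Leaving out the paired-end library, neither was called (adjusted p = 0.0542 and 0.0866), and 0.331% of all genes were. The *Fst* call was also lost without any one of 4 others: pancreas labelled on replicate 1, liver labelled on replicates 2 and 3, and lung labelled off replicate 3. Leaving out the other liver library labelled off gave 6 member calls, and with the replicate block there were 0. On day 14, 0 of 10 members and 0% of genes were called by edgeR or, for the members, DESeq2, and 2 members had an unadjusted p under 0.05, *Inhba* and *Inhbb*. The opposite directions of *Inhbb* in the pancreas and lungs of that day were therefore not shown to differ after adjustment (adjusted p = 0.854).

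The other genes of the pathway were taken from lists of 21 ligands, 14 receptors and co-receptors, 19 antagonists, 10 BMP signal transducers and response genes, and 4 proteases that process the precursors. In the pancreas of day 7, 1 of 8 ligands tested (*Bmp3*, 2.77 ± 0.40, adjusted p = 0.032) and 1 of 9 receptors (*Tgfbr3*, the betaglycan co-receptor, 1.30 ± 0.09, adjusted p = 0.00366) rose, where 1.33% of all genes were called. On day 14, *Bmp3* rose again (2.46 ± 0.59, adjusted p = 0.0322), as did *Pcsk6*, a precursor protease (1.32 ± 0.23, adjusted p = 0.0161), and *Bambi*, a decoy receptor of the family, fell (-1.39 ± 0.18, adjusted p = 0.00294), which made 1 of 7 ligands, 1 of 4 proteases and 1 of 9 receptors, where 4.64% of all genes were called. None of the 9 antagonists or 9 response genes tested was called in the pancreas on either day. Of these lists, none had a gene called by label in the liver or lungs on either day with all libraries. Without the paired-end library, 2 of 9 receptors tested were called in the liver of day 7, *Acvr1* lower and *Acvrl1* higher, where 4.98% of all genes were called.

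Between organs, genes of these lists were named by lowest p, at most 4 in a comparison. In the liver against the pancreas labelled on these were *Tgfbr3* (-3.30 ± 0.25), *Acvr2a*, a type II activin receptor (1.08 ± 0.11), *Gdf11*, a ligand of the activin branch (-2.55 ± 0.28), and *Acvr1*, a BMP type I receptor (-1.22 ± 0.14). Of 12 antagonists tested there, 6 were called, all lower, with a median of -1.76 over those tested, where 22.2% of all genes were called and their median was 0.04. Of the 9 BMP signal transducers and response genes tested, 2 were called (*Id1* and *Atoh8*, named after their values were seen), the same share as over all genes. In the liver against the lungs labelled on, *Tgfbr3* (-1.73 ± 0.24), *Gdf11* (-1.41 ± 0.27) and the BMP regulators *Bmper* (-1.81 ± 0.26) and *Grem1* (-2.65 ± 0.52) were lower, and 4 of 12 antagonists were called, all lower, where 10.3% of all genes were called. *Grem1* was at 10.1 to 76.3 CPM in the liver labelled on, 89.9 to 495 CPM among lung libraries and 193 to 329 CPM among pancreas libraries. Between lungs and pancreas labelled on, *Tgfbr3* (-1.57 ± 0.24), *Rgma*, a BMP co-receptor (-4.45 ± 0.69), *Fstl1*, a secreted glycoprotein with a follistatin-like domain (-2.63 ± 0.42), and *Bambi* (-1.98 ± 0.34) were lower.

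Among libraries labelled off, 2 of 11 antagonists were called in the liver against the pancreas with all libraries and 5 of 11 without the paired-end library, all of them lower, where 8.68% and 15.3% of all genes were called. The genes named there were *Gdf11* (-1.66 ± 0.29), *Bmp3* (3.94 ± 0.76), *Id1*, a BMP response gene (1.44 ± 0.33), and *Eng*, an endothelial co-receptor (-1.29 ± 0.33). In the lungs against the pancreas, 4 of 9 receptors and co-receptors were called, all lower, where 18.4% of all genes were called, and *Rgma* (-5.40 ± 0.87), *Fstl1* (-2.36 ± 0.38), *Gdf11* (-1.58 ± 0.25) and *Rgmb*, another BMP co-receptor (-1.41 ± 0.24), were named. Of the 10 BMP signal transducers and response genes tested there, 3 were higher and 1 lower. In the liver against the lungs labelled off, *Gdf10* (-4.59 ± 0.62) and *Eng* (-1.16 ± 0.30) were lower, and *Id3*, a BMP response gene (1.15 ± 0.28), and *Rgma* (2.98 ± 0.83) were higher, but *Id3* and *Rgma* were not called without the paired-end library. On day 7, the F test of organ by label called 2 of 9 ligands, 1 of 9 receptors and 2 of 12 antagonists (*Grem1* and *Bmper*), where 4.25% of all genes were called, and none of these lists had a call without the paired-end library or on day 14.

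The genes most like 2 members were found by Pearson correlation of mean log2 CPM over the 12 groups, among 17547 genes. *Inhbb* and *Fstl3* were taken, as the members with the highest mean CPM among those called in 1 label comparison. For *Inhbb* they were *Nat14* (r = 0.98), *Casp12* (0.97), *A2m* (0.97), *P2rx5* (0.97) and *Nrp1* (0.96), and for *Fstl3* they were *Dnaja4* (0.98), *Mprip* (0.97), *Unc5b* (0.97), *Itga5* (0.97) and *Map6* (0.96). The points are group means that share libraries with the paired-end one included, and these values are a description.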

How the data were processed

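Tumor cells sorted for mKate2 gave polyA-selected, strand-marking libraries that were read single-end at 75 bases, except 1 labelled paired-end. According to the submitters' notes and methods, the authors used FastQC 0.11.5, Trimmomatic 0.36, STAR 2.5.3a and featureCounts 1.6.3 on GRCm38 with an Ensembl annotation, and deposited raw counts per gene. One further allele of the cells is not reported here. The strand setting of the counting and whether paired reads were counted as pairs were not given in the sources used here. Depth was 11885461 to 43571007 counts.

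Each comparison was fitted over all genes in edgeR 4.0.16 (R 4.3.3; TMM, filterByExpr with a minimum count of 10, robust quasi-likelihood F tests, Benjamini-Hochberg adjustment). A call required a fold above 2 and an adjusted p under 0.05, and for organ by label the adjusted p alone. Label comparisons used the libraries of 1 organ and day. Organ comparisons used both days of 1 label, with day as a covariate. DESeq2 1.42.0, other filters and fits, and leaving out each library were alternatives. The steps were tested on simulated data. The members and lists were chosen with earlier results of these data known. All members were fitted and counted in every comparison, though not every value is printed. Other pathway genes were named by lowest p (at most 4 a comparison), and most-alike genes for the 2 members called most often, ties by level. Libraries share tumor lines of unknown identity, so p-values measure the spread between these samples.

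Deviations from the group means of same-numbered libraries correlated at 0.58, 0.60, 0.68 and 0.63 in the lungs of day 14, where the numbers were taken to pair the libraries. The labels do not state a pairing. Under both labels there, replicates 3 and 4 had counts of the gene mt-Co3 and replicates 1 and 2 had none. Whether the correlation came from a pairing or from another shared factor was not tested. In the other comparisons at least 1 pair was at or under 0.1.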

Additional observations from a re-analysis of the deposited data

Results flagged for a closer look

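Replicate 4 of the lung libraries labelled on of day 14 stood apart from the other 3 in *Inhba* (323.581 CPM against 50.4 to 83.6 CPM), *Fst* (90.4312 CPM against 16.2 to 18.0 CPM) and *Bmp2* (94.0664 CPM against 25.9 to 36.6 CPM). Replicate 2 of the lung libraries labelled off of day 7 did so in *Bmp2*, at 96.4933 CPM. In each, the gap to the nearest library took more of the range of the group than the 95% limit of the Dixon test for 4 libraries. Of 30 such tests, each of 1 member in 1 group of 4 libraries, 4 were picked out, and chance picks about 1 in 20. The first 3 picks named came from the same library, so they are not separate events.

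The label change on day 7 differed between organs for *Inhba* (adjusted p = 0.018995) and *Fst* (adjusted p = 0.0254995) by edgeR's F test of the interaction. Neither passed without the paired-end liver library (adjusted p = 0.0542 and 0.0866).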

How the results depend on the processing

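Counts of members called, out of 10, moved as follows from the values of the report. For the label in the pancreas, day 7 went from 0 to 1 with no fold threshold and to 1 with both days in one fit. Day 14 went from 3 to 0 in a single fit of all 12 groups, 6 with no fold threshold and 1 with both days in one fit. For the label in the liver, day 7 went from 0 to 7 with DESeq2, 5 with no filter on low counts, 4 with at least 10 counts in every library, 7 in the single fit, 3 with the mt-Co3 covariate and 4 with both days in one fit. Day 14 went from 0 to 2, 1 and 4 with DESeq2, the single fit and both days in one fit. In the lungs of day 14, DESeq2 gave 1 and the replicate block 2. The replicate block gave 3 in the pancreas of day 14 and 0 in the other label comparisons.

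Labelled off, liver against pancreas went from 0 to 1 with DESeq2, 2 in the single fit, 1 with mt-Co3 and 1 on day 14 alone. Lung against pancreas went from 1 to 0 with no filter, 2 with no fold threshold, 2 with mt-Co3 and 0 on day 7 alone. Liver against lung went from 0 to 1 with DESeq2, 2 in the single fit and 1 with no fold threshold. Labelled on, no fold threshold gave 8 in liver against pancreas and 2 in lung against pancreas, and liver against lung went from 5 to 7 with no fold threshold, 3 on day 7 alone and 2 on day 14 alone. Liver against pancreas had 7 on day 7 alone (*Bmp4* and *Bmpr2* gained) and 4 on day 14 alone (*Fst* lost, at -0.79). *Fstl3* in liver against lung was also lost in the single fit and with mt-Co3. DESeq2 gave no adjusted p for *Fst* in the comparisons labelled on. Organ by label on day 7 went from 2 to 5 with DESeq2 and 0 with the replicate block. The cause of these moves was not tested.

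Leaving out 1 library at a time gave ranges of 0 to 8 (label, liver, day 7), 1 to 4 (label, pancreas, day 14), 0 to 1 (labelled off, liver against pancreas and lung against pancreas), 0 to 2 (labelled off, liver against lung), 5 to 5 (labelled on, liver against pancreas), 0 to 1 (labelled on, lung against pancreas), 4 to 5 (labelled on, liver against lung) and 0 to 6 (organ by label, day 7), and 0 in the rest. *Inhbb* in liver against lung labelled off reversed, from 0.43 to -1.48, without the paired-end library, and reached 0.75 without liver replicate 1 of day 14. Counts over all genes also moved, as from 71 to 2842 with DESeq2 in the liver of day 7. The mt-Co3 covariate marked the 10 of 35 libraries that had any counts of this gene. These were 1 library in each liver group, 1 in each lung group of day 7 and 2 in each lung group of day 14. The covariate could not be fitted in the pancreas, where mt-Co3 had no counts. This split therefore went partly with organ in the comparisons against the pancreas, and what set those libraries apart was not tested. Groups of 2 to 4 libraries limit what the label comparisons can show.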
